A study of Rattus norvegicus with 8 samples.

Results

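The genes of the NMDA receptor subunits are described here in the hippocampus of rats kindled with pentylenetetrazole (PTZ) and treated with Q808. The members are Grin1, Grin2a, Grin2b, Grin2c, Grin2d and Grin3a, chosen by their NCBI GeneIDs, which are 24408, 24409, 24410, 24411, 24412 and 191573. They make up 6 of the 22601 genes of the files, and all 6 had a mean above 0.1 FPKM, the level a gene needed to be tested. FPKM counts the fragments of a gene per kilobase of its length, relative to all fragments mapped in the library. Levels of different genes are compared on this scale, as far as the value listed for each gene is right. That was not tested, and Npy, an interneuron marker, was listed at 0 in every library. Grin3b, GeneID 170796, was listed at 0 to 0.0896 FPKM and fell below that level, so its values are given without a test.

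The study asked how gene expression differs in the hippocampus of PTZ-kindled rats and what treatment with Q808, an anticonvulsant compound, changes. RNA sequencing covered 8 wild-type Wistar rats of 180 to 220 g, with 1 library per rat, 3 in the Con. group, 3 in the PTZ group and 2 in the Q808 group. The Con. rats received vehicle. The PTZ rats received 35 mg/kg PTZ, a blocker of GABA-A receptors, every 48 h for 28 days with a last dose of 60 mg/kg, and then vehicle. The Q808 rats received the same PTZ course and then 30 mg/kg Q808 by gavage for 28 days. Both groups were given PTZ once more before the tissue was taken. Both hippocampi were dissected after the meninges had been removed, and the seizures shortly before sampling cannot be told apart from the lasting effect of kindling. The files give no depth for each library, so no counting error can be stated and the precision of a value is the spread between rats.

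NMDA receptors are channels of the glutamate receptor family that pass calcium. Each receptor contains GluN1, the product of Grin1, together with GluN2 subunits from Grin2a to Grin2d or GluN3 subunits from Grin3a and Grin3b. Receptors of GluN1 and GluN2 need both glutamate and a co-agonist, glycine or D-serine, to open, and depolarization relieves their block by magnesium. The GluN2 subunits set how long the channel stays open, how it is blocked by magnesium and which kinases bind to it. In the forebrain the GluN2A to GluN2B ratio rises after birth, Grin2c is best known from cerebellar granule cells and is also found in glia, and Grin2d is found in interneurons.

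Grin1 was the gene with the highest level of the family. Grin2c was the only member whose PTZ and Q808 libraries did not overlap, as was so for 15.6% of all genes tested. The promoters of these 2 members are shown. Both are taken from RefSeq on GRCr8, run from 250 bases before to 50 bases after the start of the gene, and are written 5′ to 3′. The Grin1 window is chr3:28528705-28529004 and the Grin2c window chr10:101005089-101005388, both on the minus strand. Capitals mark matches on either strand to the GC box GGGCGG (reverse complement CCGCCC) and to the half-site of the cyclic AMP response element TGACG (reverse complement CGTCA).
Grin1: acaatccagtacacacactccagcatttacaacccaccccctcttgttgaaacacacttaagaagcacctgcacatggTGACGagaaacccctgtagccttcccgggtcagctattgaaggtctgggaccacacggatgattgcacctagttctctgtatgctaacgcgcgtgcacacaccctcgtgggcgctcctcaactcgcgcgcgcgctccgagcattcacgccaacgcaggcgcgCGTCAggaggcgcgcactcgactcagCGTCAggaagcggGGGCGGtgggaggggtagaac
Grin2c: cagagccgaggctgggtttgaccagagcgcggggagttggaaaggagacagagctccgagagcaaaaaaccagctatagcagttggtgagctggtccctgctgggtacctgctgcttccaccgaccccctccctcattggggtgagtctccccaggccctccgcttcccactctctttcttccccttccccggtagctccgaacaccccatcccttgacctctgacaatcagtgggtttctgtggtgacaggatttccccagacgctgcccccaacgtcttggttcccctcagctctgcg
The Grin1 window holds 1 GC box and 3 half-sites, none of which overlap, and 25 CG dinucleotides. The Grin2c window holds neither motif and 11 CG dinucleotides at a like base composition (60.3% G and C, against 59.7% for Grin1). Among all 33469 promoter windows of the same length, 33.1% hold the GC box and 21.2% the half-site, and the median window has 7 CG dinucleotides. Windows were found for 4 of the 6 members. Those of Grin2d and Grin3a hold neither motif, with 11 and 17 CG dinucleotides. A match of letters does not show that a factor binds there.

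The libraries differed in a way that crosses the groups and touches most of what follows. The mean log2(FPKM + 0.1) of 8 striatum marker genes, the 0.1 being a pseudocount, reached 7.12 for Con.-3, 5.78 for PTZ-3 and 5.79 for Q808-1, against 1.48 to 2.38 in the other 5 libraries. In these 3 libraries the lists of dentate granule cells (mean log2 difference -1.40), CA3 pyramidal cells (-1.55), CA1 pyramidal cells (-0.74) and neurons (-0.59) had lower means, as had the choroid plexus list (-1.86), whose level varied widely among the other 5 as well. The lists of oligodendrocytes (1.24), endothelial cells (0.71) and thalamus (0.62) had higher means. For endothelial cells this came from PTZ-3 (4.70) and Q808-1 (4.88), since Con.-3 (3.80) lay within the 3.40 to 3.92 of the other 5 libraries. All 6 neuron markers were above 0 in every library, with a summed level of 968 to 2078 FPKM. Values are therefore given with and without Con.-3, PTZ-3 and Q808-1, called the high-striatum libraries below. In tissue RNA, fewer cells of a type and less RNA per cell cannot be told apart.

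The family kept nearly the same order of levels in every library. Grin1 was the highest in 8 of 8 libraries, at a mean of 85.1 ± 16.2 FPKM (SD, n = 8). Grin2c followed at 24.4 ± 4.88 FPKM and Grin2b at 23.1 ± 7.14 FPKM. Grin2a came next at 12.3 ± 7.09 FPKM, then Grin3a at 1.98 ± 0.415 FPKM and Grin2d at 0.975 ± 0.171 FPKM. The neighbours Grin2c and Grin2b did not differ beyond their spread, since Grin2c was the higher in 3 of 8 libraries, which were the 3 high-striatum libraries. Grin2b exceeded Grin2a in 8 of 8 libraries although the ranges of both genes overlapped. Grin2a exceeded Grin2c in Con.-2 alone. Grin3a exceeded Grin2d in 8 of 8 libraries, and the ranges of these 2 genes did not overlap.

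**Figure D1:**
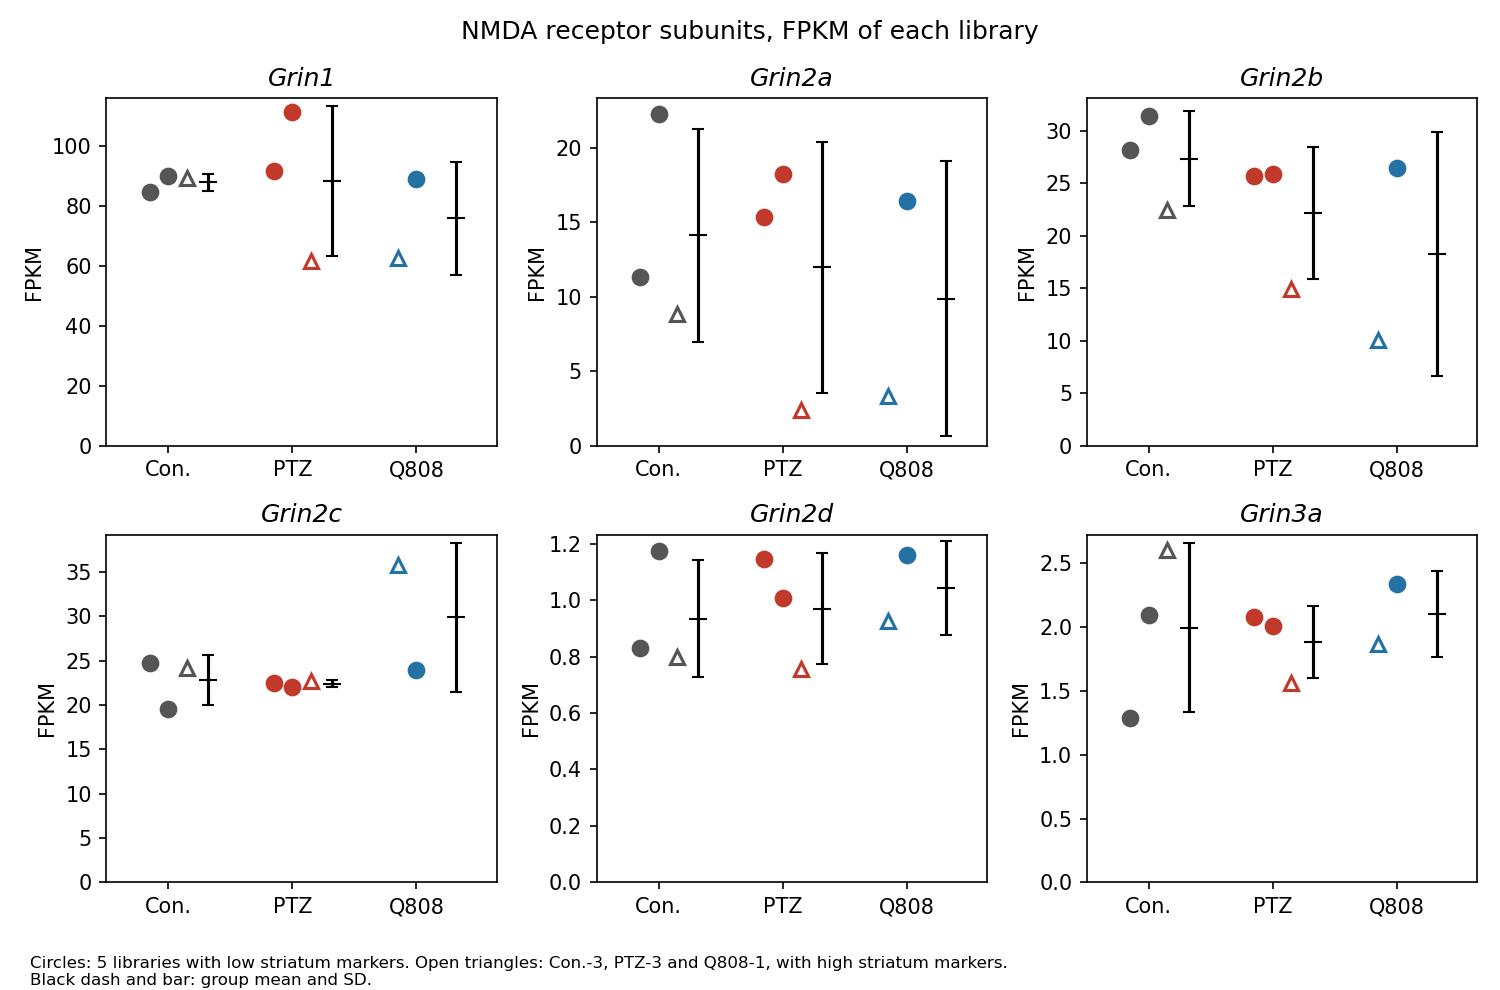
FPKM of each NMDA receptor subunit gene (vertical axes, each from 0) in the libraries of the Con., PTZ and Q808 groups, with group means and SD in black. Open triangles mark Con.-3, PTZ-3 and Q808-1, in which Grin2a lay at 2.41 to 8.85 FPKM and Grin2b at 10.1 to 22.4 FPKM, below all circles of the same gene.

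None of the 6 subunit genes passed the thresholds of the comparisons between groups, an unadjusted p under 0.05 in limma together with a fold change above 1.5. The count was 0 of 6 in PTZ against Con., where 2.53% of all 15593 genes tested were called. It was also 0 of 6 in Q808 against PTZ, with 1.92% of all genes called, and 0 of 6 in Q808 against Con., with 3.46% called. The number of members at an unadjusted p under 0.05 was 0 in each comparison. Benjamini-Hochberg adjusted p-values of the members from limma were 0.999 in PTZ against Con., 0.952 to 0.977 in Q808 against PTZ and 0.901 to 0.960 in Q808 against Con. With 2 or 3 rats a group these tests bound the differences rather than exclude them, and the intervals below say how widely. PTZ against Con. and Q808 against PTZ use the same 3 PTZ libraries, and Q808 against Con. shares its libraries with both.

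Grin1 encodes the subunit present in every NMDA receptor. Its level was 84.8, 90.0 and 89.3 FPKM in Con.-1, Con.-2 and Con.-3, 91.8, 111 and 61.9 FPKM in PTZ-1, PTZ-2 and PTZ-3, and 62.7 and 89.1 FPKM in Q808-1 and Q808-2. The Con. libraries lay close together, while the PTZ libraries held both the highest and the lowest value of the series. The log2 fold change on the log2(FPKM + 0.1) scale was -0.035 in PTZ against Con. (SE 0.21, 95% confidence interval -0.54 to 0.47). In Q808 against PTZ it was -0.20 (SE 0.30) and in Q808 against Con. -0.24 (SE 0.19). Without the high-striatum libraries PTZ against Con. turned to 0.21 (95% confidence interval -0.077 to 0.50, limma adjusted p = 0.360). The 2 PTZ libraries then lay above the 2 Con. libraries, but 54.1% of all genes tested had groups that did not overlap in that setting.

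Grin2a, the subunit of fast-decaying receptors in mature neurons, varied most. It had 11.3, 22.3 and 8.85 FPKM in Con.-1 to Con.-3, 15.4, 18.2 and 2.41 FPKM in PTZ-1 to PTZ-3, and 3.36 and 16.4 FPKM in Q808-1 and Q808-2. The range over the 8 libraries was 9.24-fold, from Con.-2 to PTZ-3. Within the groups it was 2.52-fold in Con., 7.56-fold in PTZ and 4.89-fold in Q808. Each of the 3 groups held at least 1 high and 1 low library, and all groups overlapped. The SD of Grin2a over the 8 libraries was 1.16 on the log2(FPKM + 0.1) scale, against a median of 0.344 over all genes tested, and 96.5% of genes had an SD at or below it. The difference between groups was small beside this spread. The log2 fold change was -0.56 in PTZ against Con. (SE 0.76, 95% confidence interval -2.36 to 1.24). It was -0.24 in Q808 against PTZ (SE 1.02, 95% confidence interval -2.72 to 2.24) and -0.80 in Q808 against Con. (SE 0.74, 95% confidence interval -2.64 to 1.04). Among the 5 libraries with low striatum markers the differences of Grin2a were 0.075, -0.026 and 0.049 in the same order. Between the single libraries with high striatum markers they were -1.83, 0.46 and -1.37, with no replicates.

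Grin2b encodes the subunit of slowly decaying receptors that binds CaMKII. It had 28.2, 31.3 and 22.4 FPKM in Con.-1 to Con.-3, 25.6, 25.9 and 14.9 FPKM in PTZ-1 to PTZ-3, and 10.1 and 26.5 FPKM in Q808-1 and Q808-2. The lowest library of each group was its high-striatum library, and Q808-1 was the lowest of all. The log2 fold change was -0.33 in PTZ against Con. (SE 0.25, 95% confidence interval -0.92 to 0.25), -0.39 in Q808 against PTZ (SE 0.45) and -0.73 in Q808 against Con. (SE 0.42, 95% confidence interval -1.78 to 0.33). With the 5 other libraries alone it was -0.21 in PTZ against Con. (SE 0.10, 95% confidence interval -0.45 to 0.042, limma adjusted p = 0.314), 0.040 in Q808 against PTZ and -0.17 in Q808 against Con. In that set the Con. libraries, at 28.2 and 31.3 FPKM, lay above the 3 others, which were within 25.6 to 26.5 FPKM. Of all genes tested, 54.1% did not overlap between PTZ and Con. in that set and 67.7% between Q808 and Con.

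Grin2a and Grin2b were also the members that set the high-striatum libraries apart. For these 2 of 6 members all 3 high-striatum libraries lay below the other 5, as they did for 9.59% of all genes tested. None of the 6 lay above in all 3, against 15.2% of all genes. Mean Grin2a was 4.87 ± 3.48 FPKM (SD, n = 3) in the high-striatum libraries and 16.7 ± 4.01 FPKM (n = 5) in the others. Mean Grin2b was 15.8 ± 6.24 FPKM and 27.5 ± 2.37 FPKM in the same sets. Q808-1, the lowest library for Grin2b, also had the lowest mean of the neuron list (6.09) and of the CA1 pyramidal list (2.17) and the highest of the oligodendrocyte list (9.64). The part of tissue makeup in these values was not tested.

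The Grin2a to Grin2b ratio, taken here from RNA of whole tissue and not from receptor protein, overlapped between all groups. It was 0.401, 0.710 and 0.394 in Con.-1 to Con.-3, 0.599, 0.704 and 0.161 in PTZ-1 to PTZ-3, and 0.334 and 0.620 in Q808-1 and Q808-2. The means were 0.502 ± 0.181 (SD, n = 3) in Con., 0.488 ± 0.288 (n = 3) in PTZ and 0.477 ± 0.202 (n = 2) in Q808. The difference of the mean log2 ratio was -0.24 in PTZ against Con. (two-sided exact permutation test, p = 0.8). It was 0.16 in Q808 against PTZ and -0.085 in Q808 against Con. (exact p = 0.9 for both). The smallest p these group sizes allow is 0.1. The ratio was 0.161 to 0.394 in the high-striatum libraries and 0.401 to 0.710 in the other 5, and PTZ against Con. was 0.28 on the log2 scale within the 5 and -1.29 between Con.-3 and PTZ-3.

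**Figure D2:**
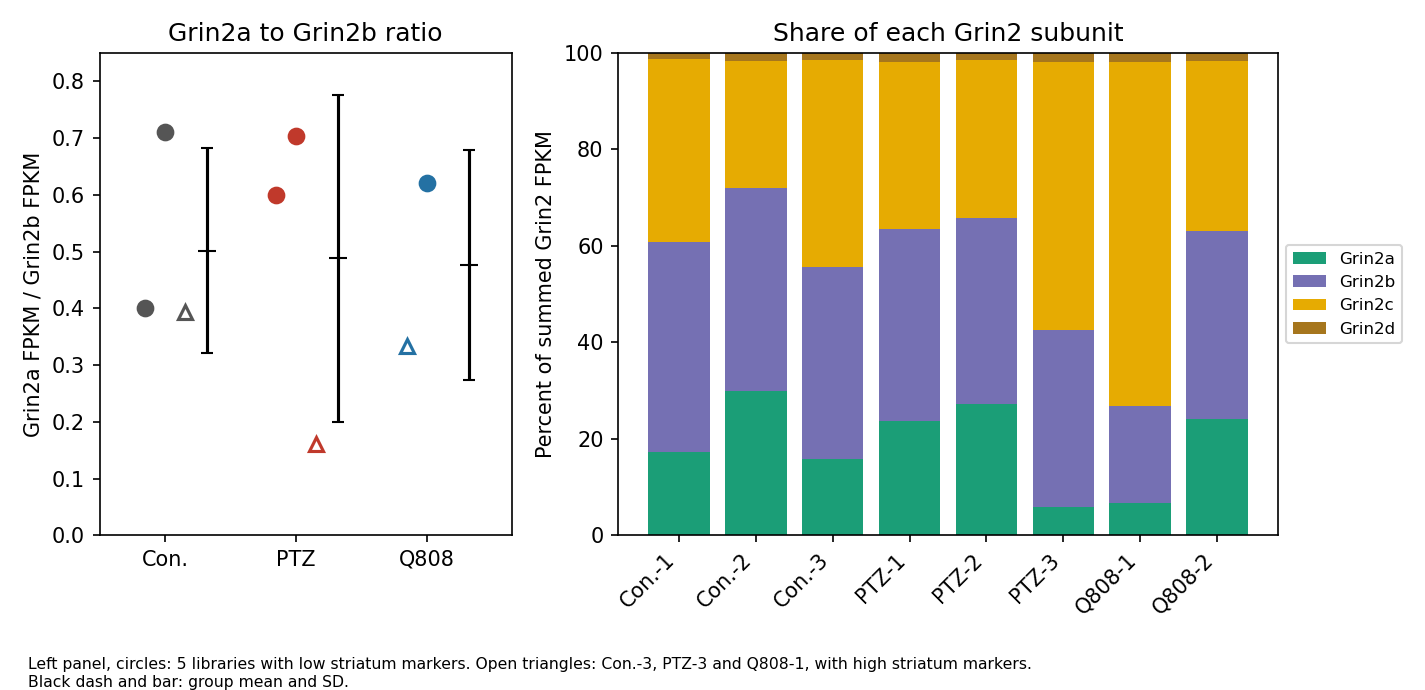
Left, the ratio of Grin2a FPKM to Grin2b FPKM in each library by group, with group means and SD. Right, the percent of the summed FPKM of Grin2a, Grin2b, Grin2c and Grin2d that each gene made up in each library, where Grin2c reached 55.7% in PTZ-3 and 71.4% in Q808-1.

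Grin2c had 24.7, 19.6 and 24.1 FPKM in Con.-1 to Con.-3, 22.4, 22.0 and 22.7 FPKM in PTZ-1 to PTZ-3, and 35.8 and 24.0 FPKM in Q808-1 and Q808-2. It was the least variable member in the PTZ group and highest in Q808-1. The Q808 libraries lay above all PTZ libraries, which was so for 1 of 6 members, where 15.6% of all genes tested had groups that did not overlap. In PTZ against Con. and Q808 against Con. this held for 0 of 6 members, against 9.15% and 20.0% of all genes. Q808-2 lay 0.11 above the mean of PTZ-1 and PTZ-2 on the log2 scale, and after median ratio scaling of the libraries the Q808 and PTZ ranges of Grin2c overlapped. The log2 fold change of Grin2c was 0.39 in Q808 against PTZ (SE 0.21, 95% confidence interval -0.13 to 0.90) and 0.37 in Q808 against Con. (SE 0.22, 95% confidence interval -0.19 to 0.93). In PTZ against Con. it was -0.018 (SE 0.13), and its interval of -0.34 to 0.30 was the narrowest of the 6 members in that comparison.

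Grin2c, with a level near that of Grin2b, is a gene of cerebellar granule cells and glia, so their markers are given beside it. Of 4 cerebellar granule markers, Gabra6, Cbln3 and Fat2 were at most 0.670, 0.292 and 0.171 FPKM in any library, and Cbln3 was listed at 0 in PTZ-1 and Q808-1. The fourth, Neurod1, which other neurons also express, ran from 0.222 FPKM in Q808-1 to 15.6 FPKM in Con.-2, and the summed level of the list was 0.435 to 16.7 FPKM. The mean log2(FPKM + 0.1) of 6 astrocyte markers was 5.66 to 6.49, and the highest was in the Q808 group (5.66 to 6.04 in Con., 5.95 to 6.20 in PTZ, 6.06 to 6.49 in Q808). In Q808-1, the library with the highest Grin2c, the lists of astrocytes (6.49), oligodendrocytes (9.64), oligodendrocyte precursors (2.43) and microglia (4.58) all had their highest means of the 8 libraries. The other libraries were mixed. Con.-3 had the lowest astrocyte mean (5.66) with Grin2c at 24.1 FPKM. Con.-2, with the lowest Grin2c (19.6 FPKM), had an astrocyte mean of 6.04 and the lowest oligodendrocyte mean (7.42). The part of glia in the Grin2c values was not tested. Grin2c made up 26.3% to 38.0% of the summed Grin2 FPKM in the 5 libraries with low striatum markers and 42.9% to 71.4% in the 3 high-striatum libraries. The level of Grin2c was 22.7 to 35.8 FPKM there against 19.6 to 24.7 FPKM in the others, while the Grin2a share was 5.90% to 15.7% against 17.4% to 29.95%. The Grin1 level was 1.21 to 1.66 times the summed Grin2 level in all 8 libraries.

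Grin2d and Grin3a, the members with the lowest levels, passed the thresholds in none of the comparisons. Grin2d had 0.832, 1.17 and 0.799 FPKM in Con.-1 to Con.-3, 1.14, 1.01 and 0.757 FPKM in PTZ-1 to PTZ-3, and 0.925 and 1.16 FPKM in Q808-1 and Q808-2, and all groups overlapped. Its log2 fold change was 0.049 in PTZ against Con. (SE 0.31), 0.10 in Q808 against PTZ (SE 0.37) and 0.15 in Q808 against Con. (SE 0.31). Grin2d is found in interneurons, and the mean of 8 interneuron markers was 3.62 to 4.32 on the log2(FPKM + 0.1) scale over the 8 libraries. Npy, one of the 8 markers, was listed at 0 in all of them. The list was at 4.12 to 4.32 in the 3 high-striatum libraries, where Grin2d was 0.757 to 0.925 FPKM. In the other 5 the list was at 3.62 to 4.23 and Grin2d at 0.832 to 1.17 FPKM. Of the 8 markers, 1, Slc32a1, was higher in all 3 high-striatum libraries than in the other 5. The part of striatal tissue in this list was not tested. Grin3a, whose product lowers the calcium flow of the receptor, had 1.29, 2.10 and 2.60 FPKM in Con.-1 to Con.-3, 2.08, 2.01 and 1.56 FPKM in PTZ-1 to PTZ-3, and 1.86 and 2.34 FPKM in Q808-1 and Q808-2. Con. spanned the values of both other groups. The log2 fold change of Grin3a was -0.037 (SE 0.32), 0.15 (SE 0.32) and 0.12 (SE 0.36) in the same 3 comparisons. Without the high-striatum libraries it was 0.29 in PTZ against Con. (limma adjusted p = 0.599) and 0.48 in Q808 against Con. (limma adjusted p = 0.922).

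**Figure D3:**
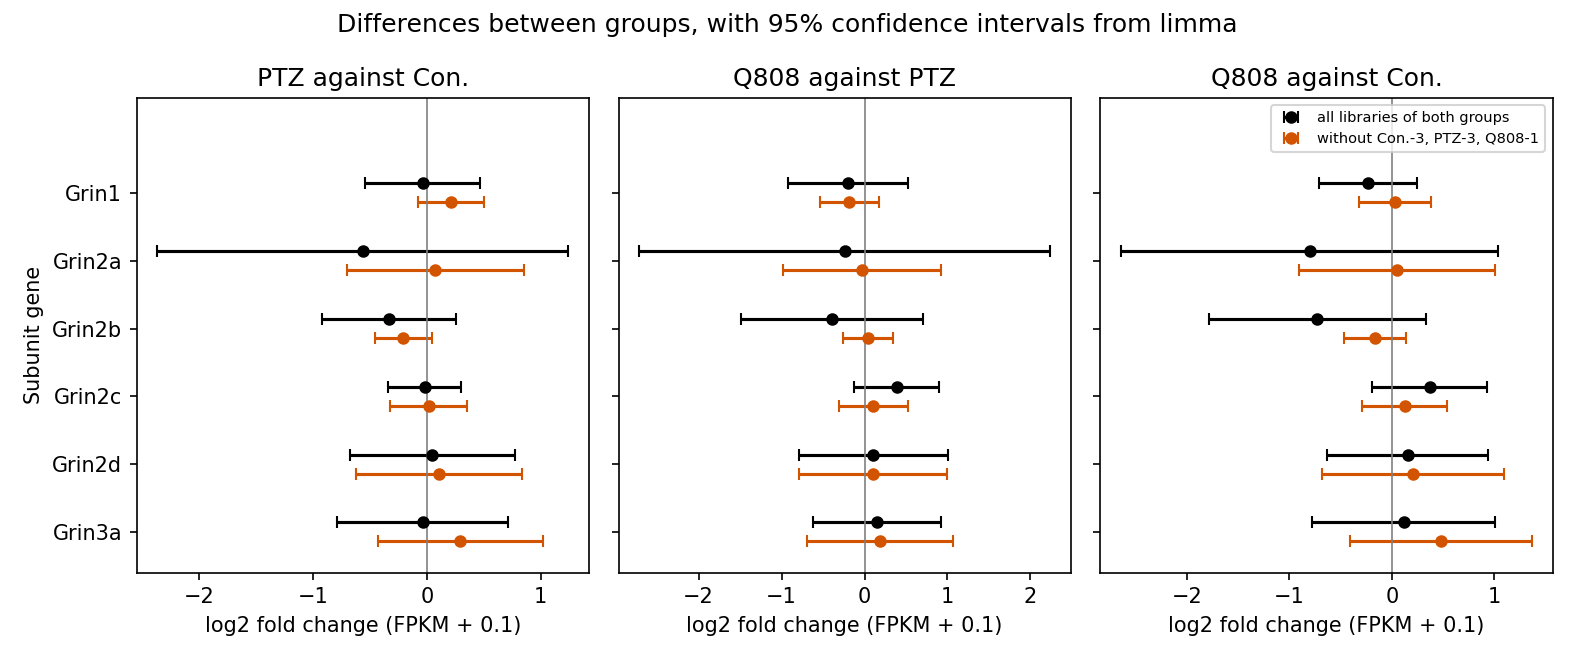
Log2 fold change of each subunit gene in the 3 comparisons (horizontal axes, log2 of FPKM + 0.1) with 95% confidence intervals from limma, for all libraries in black and without Con.-3, PTZ-3 and Q808-1 in orange. All intervals include 0, and those of Grin2a are the widest in black, reaching from -2.36 to 1.24 in PTZ against Con.

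Leaving out the 3 high-striatum libraries changed none of the counts of members called, with a fit of all 3 groups in which the single Q808-2 library was taken to vary like the others. The count of members called stayed at 0 of 6 in PTZ against Con., 0 of 6 in Q808 against PTZ and 0 of 6 in Q808 against Con. The share of all genes called rose to 9.82%, 10.4% and 4.53% in these comparisons. The number of members whose groups did not overlap went from 0 to 2, from 1 to 5 and from 0 to 2, while 54.1%, 78.3% and 67.7% of all genes did not overlap with so few libraries. The counts of members called did rest on Q808-2. Without it the Q808 group was Q808-1 alone, a high-striatum library, and 2 of 6 members were called in Q808 against PTZ, Grin2b at -1.09 and Grin2c at 0.68 (limma adjusted p = 0.524 for both), where 8.34% of all genes were called. In Q808 against Con. 3 of 6 were called, Grin2a at -1.93, Grin2b at -1.42 and Grin2c at 0.66, where 11.5% of all genes were called. The spread in these fits came from the other group alone, and Q808-1 was assumed to vary like it. No adjusted p of a member fell below 0.314 under any alternative.

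The genes around the receptor were read from a list of 74 genes in 5 roles. In PTZ against Con. 2 of 74 were called, 1 higher and 1 lower, close to the 2.53% of all genes. The median log2 fold change of the list was -0.025, against -0.041 over all genes tested. Camk2d, which encodes the delta subunit of CaMKII, had 4.20, 5.83 and 7.90 FPKM in Con.-1 to Con.-3 and 9.27, 15.1 and 12.3 FPKM in PTZ-1 to PTZ-3, so that both groups stood apart, a log2 fold change of 1.04 (SE 0.28). Dapk1, a death-associated kinase that acts on GluN2B, had 15.1, 19.1 and 16.0 FPKM in Con. and 10.7, 9.37 and 11.6 FPKM in PTZ, a log2 fold change of -0.66 (SE 0.16). The adjusted p was 0.999 for both by limma. A fit with the replicate block called 5 of 74, which added Slc1a4 (0.63), Actn2 (-0.71) and Bdnf (2.35), and 3.95% of all genes.

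In Q808 against PTZ 2 of 74 partner genes were called, against 1.92% of all genes, with list and all-gene medians of -0.062 and 0.097. Dao, which encodes the oxidase that breaks down the co-agonist D-serine, was at 0.0408, 0.0795 and 0.0517 FPKM in PTZ-1 to PTZ-3 and at 0.407 and 0.170 FPKM in Q808-1 and Q808-2. These levels are low, and the fold change of 1.24 on the log2(FPKM + 0.1) scale (SE 0.50, limma adjusted p = 0.952) understates the ratio. Dao reached the mean of 0.1 FPKM needed for a test, at 0.109 FPKM, only through its Q808 libraries. The group means were 0.0420 FPKM in Con., 0.0573 FPKM in PTZ and 0.289 FPKM in Q808, so its call is not independent of that filter. Homer1, a scaffold of the postsynaptic density with an activity-induced short form, had 44.5, 66.3 and 23.6 FPKM in PTZ. Both Q808 libraries stood at 20.2 FPKM, so that Homer1 was lower by -1.03 on the log2 scale (SE 0.41, limma adjusted p = 0.952). In Q808 against Con. 2 of 74 were called, against 3.46% of all genes, with medians of -0.094 for the list and 0.045 for all genes. Dao was higher by 1.38 (SE 0.45), with Con. at 0.0372 to 0.0445 FPKM, and the same limit from the filter holds for this call. Ppp3ca, the catalytic subunit of calcineurin, had 356, 314 and 342 FPKM in Con. and 179 and 247 FPKM in Q808. It was lower in Q808 than in Con. by 0.68 on the log2 scale (SE 0.21, limma adjusted p = 0.901). The PTZ libraries, at 282, 233 and 228 FPKM, also lay below all Con. libraries and overlapped those of Q808. Ppp3ca was not called in PTZ against Con. (-0.45, SE 0.14, limma adjusted p = 0.999). In Q808 against PTZ it was not called either (-0.23, SE 0.22, limma adjusted p = 0.952).

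**Figure D4:**
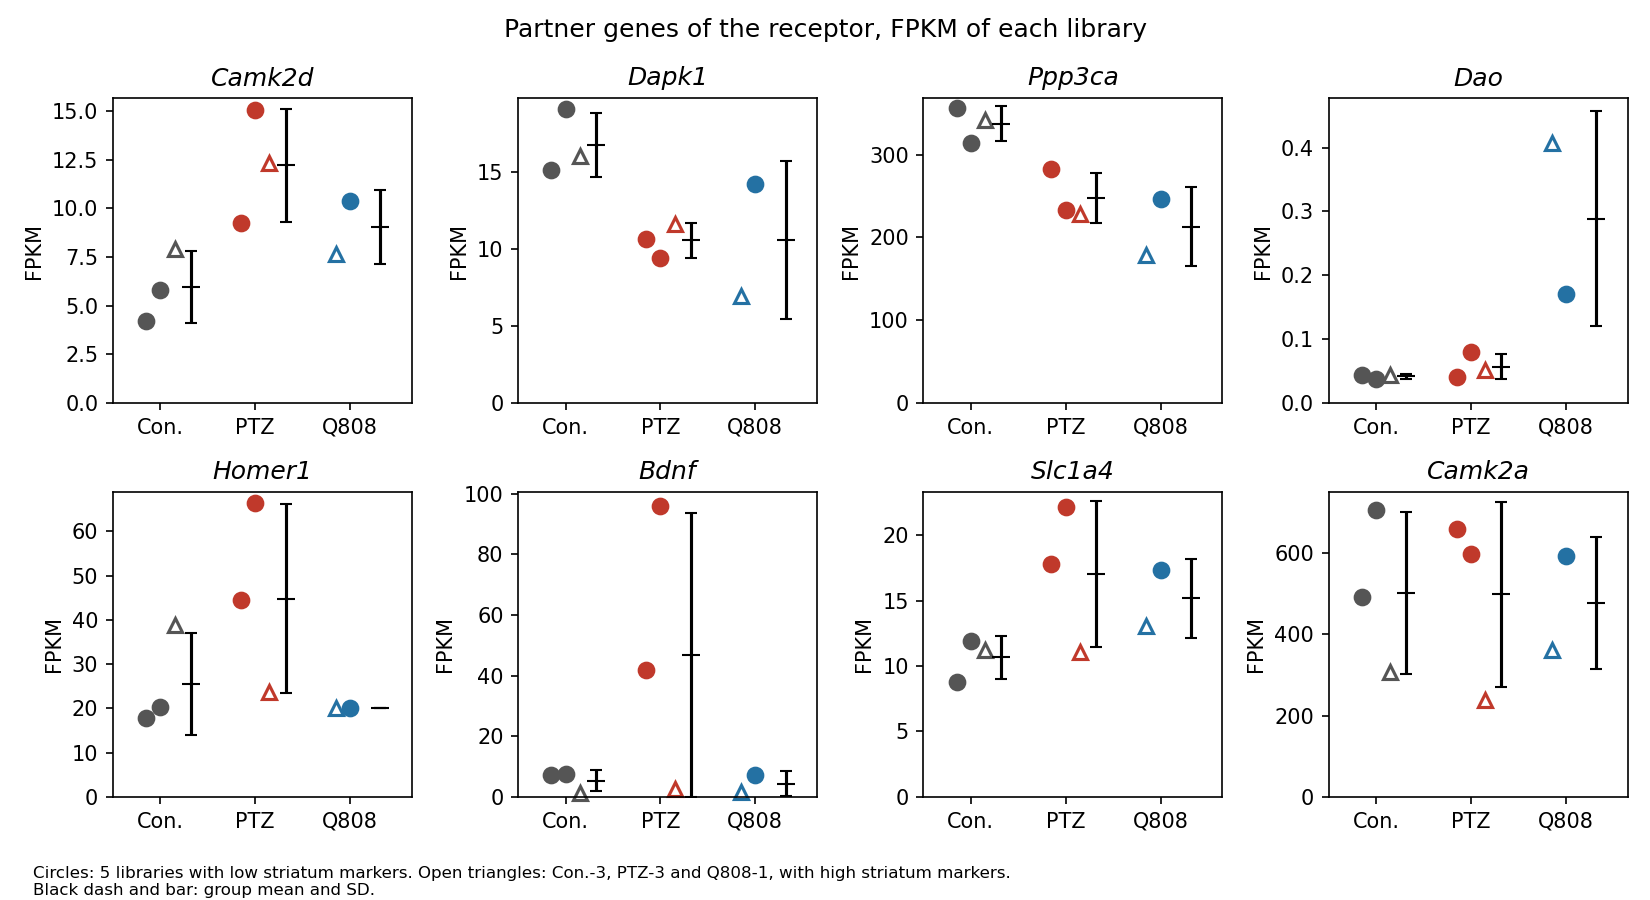
FPKM (vertical axes, each from 0) of 8 partner genes of the receptor in each library by group, with group means and SD in black. Open triangles mark Con.-3, PTZ-3 and Q808-1, and Bdnf stood at 41.7 and 95.8 FPKM in PTZ-1 and PTZ-2 and at 7.53 FPKM or less in the other 6 libraries.

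Without the high-striatum libraries Bdnf and Homer1 differed between PTZ and Con., with 2 libraries in each group. The partner list as a whole held no larger share of calls than all genes in PTZ against Con., where 5 of 74 were called, against 9.82% of all genes. A limma adjusted p under 0.05 was reached by 2 of 74 partner genes and by 148 of all 15593 genes tested. Bdnf, a neurotrophin induced by calcium entry, had 7.25 and 7.53 FPKM in Con.-1 and Con.-2 and 41.7 and 95.8 FPKM in PTZ-1 and PTZ-2, and rose by 3.08 (SE 0.37, limma adjusted p = 0.039). Homer1 had 17.7 and 20.2 FPKM in the same Con. libraries and 44.5 and 66.3 FPKM in the PTZ libraries, and rose by 1.52 (SE 0.20, limma adjusted p = 0.045). Camk2d at 1.24, Slc1a4, a transporter of serine, at 0.95 and Dapk1 at -0.76 were the other calls, none with an adjusted p under 0.05. The Q808 group was then Q808-2 alone, so only the size of its differences is given here. In Q808 against PTZ it was -3.10 for Bdnf, with Q808-2 at 7.28 FPKM, and -1.43 for Homer1. In Q808 against Con. it was 0.75 for Slc1a4 and 1.05 for Camk2d. With all libraries Bdnf did not pass in PTZ against Con. (2.35, SE 1.33, limma adjusted p = 0.999), and Con.-3, PTZ-3 and Q808-1 had 1.31 to 2.52 FPKM. Homer1 did not pass there either (0.77, SE 0.43, limma adjusted p = 0.999), and its groups overlapped. Between the high-striatum libraries Homer1 went the other way, with 38.8 FPKM in Con.-3 and 23.6 FPKM in PTZ-3.

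The most abundant gene of each role did not pass the thresholds in any of the 3 comparisons. Psat1, an enzyme of serine synthesis, had means of 105 ± 19.5 FPKM (SD, n = 3) in Con., 120 ± 29.2 FPKM (n = 3) in PTZ and 146 ± 73.5 FPKM (n = 2) in Q808. Dlg4, the gene of the PSD-95 scaffold that holds GluN2 subunits at the synapse, had 167 ± 2.79, 164 ± 5.27 and 153 ± 20.5 FPKM. Camk2a, the alpha subunit of CaMKII, had 501 ± 199, 498 ± 228 and 477 ± 163 FPKM and, like Grin2a, was lowest in the high-striatum libraries, at 308, 238 and 362 FPKM in Con.-3, PTZ-3 and Q808-1. Ap2m1, a clathrin adaptor, had 355 ± 27.0, 373 ± 14.8 and 308 ± 78.2 FPKM, and Calm3, a calmodulin gene, 1459 ± 429, 1465 ± 398 and 1275 ± 505 FPKM.

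The genes whose pattern was most like each member were found by Pearson correlation of log2(FPKM + 0.1) over the 8 libraries among 12377 genes with a mean of at least 1 FPKM, as a description without a test. The libraries share the division by striatum markers, which enters every such r. Grin2a was most like Dctn1 (r = 0.990), a dynactin subunit, Pcdh1 (0.989), a protocadherin, and Cadps (0.986), which primes dense-core vesicles. Pcdh1 ran from 14.6 FPKM in PTZ-3 to 59.2 FPKM in PTZ-2 and Cadps from 14.6 to 48.1 FPKM in the same libraries, while Dctn1 moved only from 89.9 to 123 FPKM. Grin2b was most like Pabpc1l2a (0.992), Plaa (0.992) and Frrs1l (0.989), which takes part in AMPA receptor assembly and ran from 17.6 to 61.0 FPKM. Among the genes most like Grin1 were Tbl2 (0.977) and Garem1 (0.976), and Grin2c was most like Snx9, Pex11a and Col11a2 (0.959 to 0.962). Grin2d was most like Tom1l2, Depdc5 and Scaf1 (0.921 to 0.948) and Nipal3 (0.939) and Myo5a (0.935) were among those most like Grin3a.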

How the data were processed

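RNA of 8 rat hippocampi was sequenced after poly(A) capture, 1 library per rat. The authors deposited FPKM for each of 22601 genes in each library. The submitters' processing notes name Trimmomatic, HISAT2, Bowtie2, SAMtools, StringTie, Cufflinks, HTSeq and DESeq without roles or versions, and the study's methods name Cufflinks for the FPKM. The genome build is not given in the sources used here. Groups and replicate numbers came from the titles of the libraries and the treatments from the labels and the study's methods. Symbols came from the RefSeq table of GRCr8 by GeneID, for 20633 genes.

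Genes were tested with limma 3.58.1 in R 4.3.3 (empirical Bayes with a mean-variance trend). Tables, permutation tests and plots used scipy 1.17.1, pandas 2.3.3, matplotlib 3.10.9 and numpy 2.4.6 under Python 3.11.15. All 15593 genes with a mean of at least 0.1 FPKM were fitted on log2(FPKM + 0.1), each comparison on its own 2 groups, with Benjamini-Hochberg adjustment over all of them. On this scale the change of low genes is understated. The call needed an unadjusted p under 0.05 together with a fold change above 1.5. The Grin2a to Grin2b ratio was compared by two-sided exact permutation tests of its log2. The limma fit was also run on simulated data with known changes. Most of these changes had to be called only where the spread was set smaller than in these data. At the spread of these data only their direction was checked. The members, the partner list and the marker lists were chosen with earlier results of these data known, as was the division by striatum markers. Named were the members, the partner genes called in a comparison and the most abundant of each role, and the 3 genes most like each member, of which some are not reported here. Bdnf, Slc1a4 and Actn2 were called only under an alternative and were named after their values were seen. Libraries with the same replicate number correlated in their deviations from the group means by 0.212, 0.299 and 0.422 in PTZ and Con., so that the numbers, which come from the titles, may pair these libraries. The alternatives were pseudocounts of 1 and 0.01, other filters, all groups in 1 fit, limma without the trend, quantile and median ratio scaling, a replicate block, a threshold on p alone, the striatum mean as a covariate, and libraries left out. Read counts and raw reads were not used here.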

Additional observations from a re-analysis of the deposited data

How the results depend on the processing

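The count of subunit genes called stayed at 0 of 6 in 48 of 52 alternatives. It was 1 with the replicate number as a block (Grin2a, Q808 against Con., -1.08) and 1 with the striatum mean as a covariate (Grin2b, Q808 against Con., -0.71), where 6.90% and 6.19% of all genes were called. With each library left out in turn it was 0 to 2 in Q808 against PTZ, 0 to 3 in Q808 against Con. and 0 in PTZ against Con., and the counts above 0 came without Q808-2. The block changed no other call of a subunit. The pairing of PTZ with Con. is uncertain, since Con.-2 and PTZ-1, of different numbers, correlated at 0.322 and the highest same-numbered value joined the high-striatum libraries Con.-3 and PTZ-3. For Q808 the same-numbered correlations were -0.379 and 0.527 with Con. and -0.295 and 0.322 with PTZ. With 2 Q808 libraries the deviations from the group mean mirror each other. These values therefore cannot decide whether the numbers pair Q808. The Grin2a to Grin2b ratio moved by less than the spread between rats in 28 of 28 alternatives, though its sign was not fixed (-0.63 to 0.43 in PTZ against Con. with each library left out).

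The count of partner genes called, 2 in each comparison, moved in 30 of 52 alternatives. In PTZ against Con. it was 5 with the replicate block, 4 with the striatum covariate, 5 without the 3 high-striatum libraries, 4 by p alone and 1 to 5 with each library left out. The shares of all genes in these settings were 3.95%, 4.25%, 9.82%, 3.78% and 1.60% to 7.28%. In Q808 against PTZ it was 5 with the replicate block, 4 with the striatum covariate and 1 with pseudocounts of 1 or 0.01, with all genes above 0, with a mean of at least 1 FPKM, with all groups in 1 fit or without the trend. It was 0 with quantile or median ratio scaling and 0 to 13 with each library left out. All genes were called at 12.1% with the block, 4.53% with the covariate, 1.40% to 2.69% in the settings with a count of 1 or 0, and 0.847% to 10.1% with a library left out. In Q808 against Con. it was 7 with the replicate block, 7 with the striatum covariate, 1 with a pseudocount of 1 or a mean of at least 1 FPKM and 0 to 16 with each library left out. The shares of all genes were 6.90%, 6.19%, 2.18% to 2.94% and 1.79% to 11.5%. The counts of 13 and 16 came without Q808-2, where 8.34% and 11.5% of all genes were called.

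Some log2 fold changes of the subunits turned sign, none of them a call. With each library left out, PTZ against Con. ranged from -0.22 to 0.20 for Grin1, -1.08 to 0.35 for Grin2a, -0.12 to 0.044 for Grin2c, -0.069 to 0.21 for Grin2d and -0.31 to 0.17 for Grin3a. Q808 against PTZ ranged from -0.45 to 0.054 for Grin1, -1.37 to 0.89 for Grin2a, -1.09 to 0.30 for Grin2b, -0.046 to 0.25 for Grin2d and -0.0026 to 0.31 for Grin3a. Q808 against Con. ranged from -0.49 to 0.019 for Grin1, -1.93 to 0.33 for Grin2a and -0.15 to 0.33 for Grin3a. Without the 3 high-striatum libraries PTZ against Con. became 0.21 for Grin1, 0.075 for Grin2a, 0.016 for Grin2c and 0.29 for Grin3a. Q808 against Con. became 0.029 for Grin1 and 0.049 for Grin2a, and Q808 against PTZ 0.040 for Grin2b. With the replicate block Grin2d in Q808 against PTZ became -0.046. With the striatum covariate Grin2a in Q808 against PTZ became 0.016 and Grin2c in PTZ against Con. 0.0066. Quantile normalization gave -0.17 and -0.11 for Grin2d in Q808 against PTZ and against Con., and for Grin3a -0.087 and -0.071 in the same comparisons and 0.016 in PTZ against Con. Median ratio scaling gave 0.0092, 0.026 and 0.0058 for Grin1, Grin2c and Grin3a in PTZ against Con. The cause of the changes was not tested. With 2 or 3 rats a group, the intervals of Grin2a still allow changes of more than 2-fold in both directions in PTZ against Con., and depth per library is unknown.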
